A study of Mus musculus with 24 samples.

Results

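The comparison set the Esam-high (Esamhi) fraction of CD11b+ dendritic cells against the Esam-low (Esamlo) fraction in spleens of mice that carried an internal tandem duplication (ITD) in 1 copy of Flt3. It used 4 of the 24 libraries of the series: 2 of Esamhi and 2 of Esamlo cells of genotype Flt3 ITD/+, 1 of each from experiment batch C and 1 from batch D. The same 4 libraries of Flt3 +/+ (WT) mice, from the same batches, gave the gap against which the ITD gap was set. All 8 libraries came from animals labelled as F1 of a C57BL/6 and FVB/N cross. The labels give the genotype of the mouse with no promoter, Cre line, treatment, age or sex, and do not say whether a library pooled animals. Cells were sorted by flow cytometry, and all genes of the raw count table were used. The question was whether the gap between the fractions seen in WT cells was kept in ITD cells.

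CD11b+ splenic dendritic cells are the subset best known for presenting antigen to CD4+ T cells. Esam, an adhesion molecule of endothelial and dendritic cells, divides them into a fraction whose formation depends on Notch2 signalling and a fraction with more features shared with monocytes. Notch receptors are cut on ligand binding, and the released domain joins RBPJ on DNA to switch on targets such as Dtx1. Flt3 is the cytokine receptor that drives dendritic cell development, and the ITD makes it signal without ligand.

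The gap between the fractions was present in ITD cells. Dtx1 was high in both Esamhi libraries, and Clec12a, Ccr2 and a group of C-type lectins were high in both Esamlo libraries. Of the 119 genes called between the fractions in WT cells without a batch block, all had the same direction in ITD cells, and of the 1151 called with the block 1124 did. No gene passed the test of a difference between the ITD gap and the WT gap. A missing call in a comparison of 2 libraries a group does not show that the gaps were equal.

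Esamlo ITD batch C held the fewest counts of the 8 libraries, 11197145, and the largest held 17689913. Levels are counts per M counts of the library (CPM, M for mega), differences are log2 values of Esamhi minus Esamlo from edgeR's quasi-likelihood fit, and each ± after a difference is its standard error. The word called is used of genes with a p under 0.05 after Benjamini-Hochberg adjustment over the 18093 genes tested. Libraries of 1 group differed beyond the noise of counting (chi-square divided by its degrees of freedom, 13.3 to 48.4). Flt3 itself had 394 and 387 CPM in the Esamhi ITD libraries and 412 and 433 CPM in the Esamlo ITD libraries. Its WT levels were 441 and 431 CPM in Esamhi and 536 and 532 CPM in Esamlo cells. A count over the whole gene does not show whether a copy carries the duplication, so these levels check no genotype label.

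The 4 markers of the fractions were read first. Esam (chr9:37528078-37538319, plus strand, mm10), the surface protein used to sort the fractions, had 68.8 and 59.9 CPM in the Esamhi ITD libraries of batches C and D and 9.11 and 12.3 CPM in the Esamlo ITD libraries. The lowest Esamhi library was thus above the highest Esamlo library. The difference of 2.56 ± 0.66 did not pass the test (adjusted p = 0.124) without a batch term, and passed it with the batch as a block (2.58, adjusted p = 0.00259). Esam was part of the sort, so its gap checks the label and is not a finding.

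Dtx1 (chr5:120680202-120711927, minus strand), a ubiquitin ligase of the Deltex family and a Notch target, had 221 and 236 CPM in Esamhi ITD cells and 38.9 and 59.0 CPM in Esamlo ITD cells. Its groups did not overlap, and the difference was 2.20 ± 0.43 (adjusted p = 0.0257). In WT cells Dtx1 had 271 and 306 CPM in the Esamhi libraries and 39.5 and 99.7 CPM in the Esamlo libraries. Clec12a (chr6:129342691-129365303, plus strand), an inhibitory C-type lectin of myeloid cells, had 49.8 and 50.1 CPM in Esamhi ITD cells and 207 and 177 CPM in Esamlo ITD cells. It fell by 1.96 ± 0.19 in Esamhi against Esamlo cells (adjusted p = 7.58e-05). Ccr2 (chr9:124101950-124113557, plus strand), the chemokine receptor that brings monocytes out of bone marrow, had 68.5 and 76.1 CPM in Esamhi ITD cells against 462 and 408 CPM in Esamlo ITD cells. It fell by 2.61 ± 0.48 (adjusted p = 0.0153). All 4 markers thus separated the ITD fractions in the direction their labels give.

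**Figure D1:**
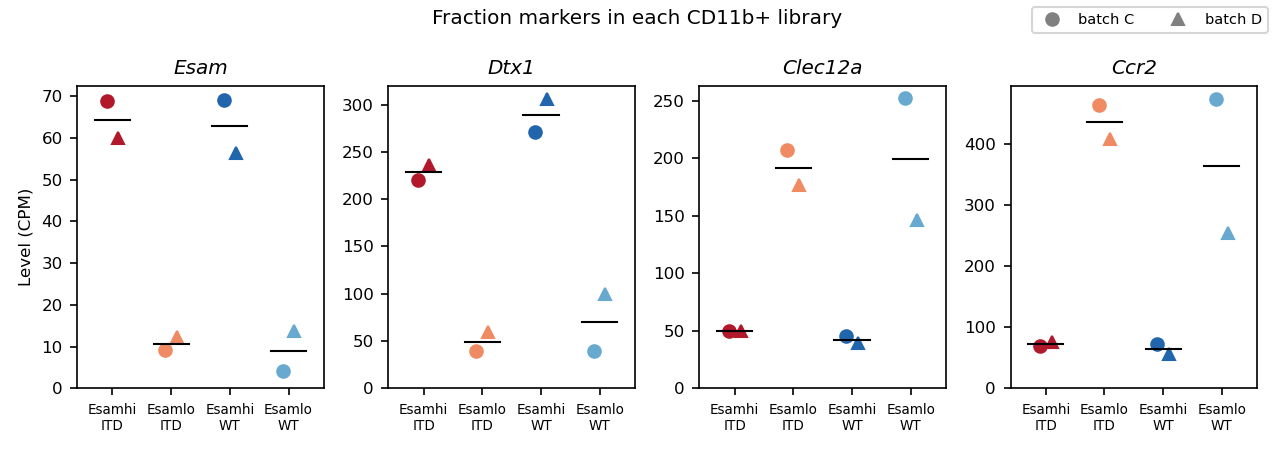
Level in CPM of Esam, Dtx1, Clec12a and Ccr2 in each of the 8 CD11b+ libraries (circles batch C, triangles batch D, bars the mean of 2 libraries). In ITD as in WT cells the Esamhi libraries were above the Esamlo libraries for Esam and Dtx1 and below them for Clec12a and Ccr2.

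Between the ITD fractions, 80 genes were called, which is 0.442% of the 18093 tested. In Esamhi cells 15 of them were higher (0.0829% of genes tested) and 65 were lower (0.359%), so most called genes were higher in Esamlo than in Esamhi cells. Many were not particular to Esamlo cells in the series. Of the 65, 36 were higher in plasmacytoid cells than in both fractions, against 46.2% of all genes tested. For canonical CD8+ cells this was so for 33, against 39.8%, and for non-canonical CD8+ cells for 30, against 38.8%. All 80 had the same sign in batch C and in batch D, which was so for 62% of all genes tested. With the batch as a block, 696 genes were called (3.85%), 255 higher (1.41%) and 441 lower (2.44%). The count of 80 rested on both batches: it was 13 without Esamhi ITD batch C, 5 without Esamhi ITD batch D, 31 without Esamlo ITD batch C and 12 without Esamlo ITD batch D. Only Clec12a and Fcgr2b, an inhibitory Fc receptor of B cells and myeloid cells, were called without each of the 4 ITD libraries in turn. With the block the same 4 omissions left 193, 233, 248 and 132 genes called, and 87 of the 696 genes were called in all 4. Every one of the 80 genes had its sign in each of the 4 omissions without a block.

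The genes higher in Esamhi ITD cells, taken by size among called genes with at least 5 CPM, were of mixed roles. Aire, a transcription regulator known from thymic epithelium, had 5.03 and 13.3 CPM in Esamhi ITD cells and 0.536 and 0.788 CPM in Esamlo ITD cells. Its difference of 3.74 ± 0.73 (adjusted p = 0.0278) was the largest called increase at that level. Ttn, the gene of the giant muscle protein titin, had 48.0 and 42.2 CPM against 5.54 and 6.0 CPM. Its difference was 2.94 ± 0.58 (adjusted p = 0.0282). Pglyrp2, an amidase that cuts bacterial peptidoglycan, had 26.6 and 20.1 CPM against 5.45 and 6.13 CPM. For these 3 genes both Esamlo ITD libraries were below both Esamhi ITD libraries. Galnt12, which starts mucin-type sugar chains, had 44.0 and 41.8 CPM against 16.6 and 19.7 CPM, with a difference of 1.22 ± 0.19 (adjusted p = 0.00532). Ppp1r14a, an inhibitor of myosin phosphatase, had 50.5 and 53.7 CPM against 20.2 and 20.1 CPM. St14, the membrane protease matriptase, had 73.8 and 78.6 CPM against 27.3 and 31.9 CPM. Sept1, a septin of the cytoskeleton, Sspo, a secreted spondin, and Stau2, which binds double-stranded RNA, were the other named increases, with differences of 0.97, 1.87 and 1.65.

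Among called genes with at least 5 CPM, the decreases of largest size were Fgd6 and the lectins Clec10a and Mgl2. Clec10a (chr11:70156197-70170834, plus strand), a lectin for galactose-type sugars, had 13.7 and 8.65 CPM in Esamhi ITD cells and 142 and 114 CPM in Esamlo ITD cells. It fell by 3.54 ± 0.45 (adjusted p = 0.00194). Mgl2 (chr11:70130329-70137550, plus strand), its close relative and neighbour, had 7.91 and 5.33 CPM against 71.9 and 46.8 CPM and fell by 3.18 ± 0.47 (adjusted p = 0.00376). Of the 50-base words of Mgl2 exons 13.1% also occur in Clec10a, so some reads of this pair may be shared, which was not tested. Both genes had their lowest level in Esamhi batch D and a clear gap between the groups.

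Fgd6, an exchange factor for the GTPase Cdc42, had 0.735 and 0.666 CPM in Esamhi ITD cells against 8.75 and 7.64 CPM in Esamlo ITD cells and fell by 3.55 ± 0.65 (adjusted p = 0.0153). Plxdc2, a membrane protein with a plexin domain, had 4.52 and 3.87 CPM against 29.0 and 29.7 CPM. Mcub, an inhibitory subunit of the mitochondrial calcium uniporter, had 3.22 and 4.12 CPM against 29.3 and 18.6 CPM. All 3 were near the bottom of their range in both Esamhi ITD libraries. Padi2, which turns arginine into citrulline in proteins, had 5.43 and 5.75 CPM against 27.2 and 36.8 CPM and fell by 2.54 ± 0.35 (adjusted p = 0.00297). Ahnak, a giant scaffold protein, had 40.4 and 60.2 CPM against 197 and 327 CPM. Aldoc, a glycolytic aldolase, had 3.00 and 2.54 CPM against 13.4 and 15.1 CPM. Fcgr2b had 30.8 and 23.3 CPM against 152 and 119 CPM and fell by 2.35 ± 0.23 (adjusted p = 7.58e-05). The 10 decreases of largest size were also called with the batch block.

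**Figure D2:**
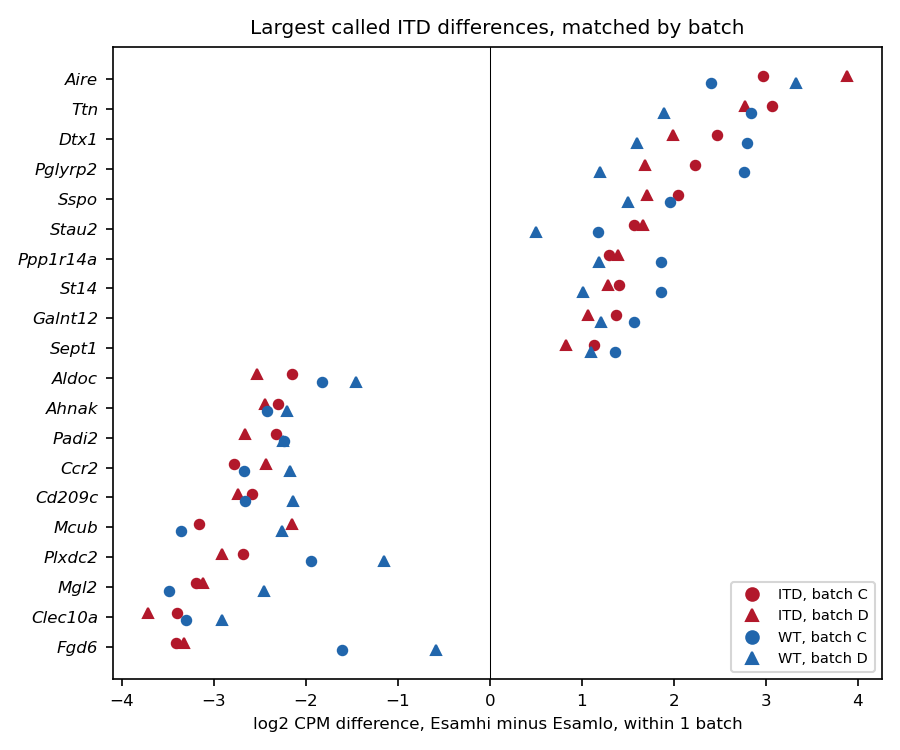
Log2 CPM difference of Esamhi minus Esamlo within 1 batch, for the 10 largest called increases and 10 largest called decreases of the ITD comparison (red ITD, blue WT, circles batch C, triangles batch D). The choice of genes sets the side of the red points, and the blue points, which the choice did not use, lie on the same side for all 20 genes.

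With the batch as a block, further genes with low levels in 1 fraction were named. Ryr3, a calcium release channel, had 53.3 and 64.3 CPM in Esamhi ITD cells and 1.61 and 5.58 CPM in Esamlo ITD cells (4.15, adjusted p = 0.00372). Crispld2, a secreted cysteine-rich protein, had 30.5 and 64.2 CPM against 2.95 and 4.31 CPM. Asprv1, an aspartic protease, had 24.6 and 61.9 CPM against 3.57 and 6.13 CPM, and Igsf3, an immunoglobulin family membrane protein, had 13.6 and 29.4 CPM against 0.982 and 2.12 CPM. For the last 3 the Esamhi library of batch D was the higher one, and both Esamlo ITD libraries were below both Esamhi ITD libraries. In the other direction Tnip3, a protein that restrains NF-kB signalling, had 1.19 and 2.06 CPM in Esamhi ITD cells against 18.9 and 40.2 CPM in Esamlo ITD cells (adjusted p = 0.000487). Kcne3, a potassium channel subunit, had 2.26 and 0.605 CPM against 14.2 and 14.1 CPM. Il1rl2, the receptor for interleukin-36, had 0.904 and 0.908 CPM against 6.43 and 8.25 CPM. With a block fitted within each genotype Il1rl2 was not called (adjusted p = 0.061). None of these 7 genes was called without the block, where their adjusted p ran from 0.0635 for Ryr3 to 0.294 for Tnip3.

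The WT gap was set beside the ITD gap next. In WT cells 119 genes were called (0.658% of those tested), 24 higher (0.133%) and 95 lower (0.525%) in Esamhi. In ITD cells 119 of these 119 genes had the same sign, against 68.4% of all genes tested (12379 of 18093). Of the 119, 57 (47.9%) were also called in ITD cells, and 114 had an unadjusted p under 0.05 there with the same sign. Read from the ITD side, 79 of the 80 called genes had the same sign in WT cells and 57 (71.2%) were called there. The 1 exception was Wdr78, a dynein-associated protein with a mean of 1.58 CPM in Esamhi ITD cells, with differences of 3.11 in ITD and -0.38 in WT cells. The 2 comparisons share no library, but they share batches and 1 estimate of the spread. The WT count was 11 without Esamhi WT batch C, 4 without Esamhi WT batch D, 12 without Esamlo WT batch C and 126 without Esamlo WT batch D. In each of these, and without each ITD library, at least 98.9% of the WT calls had the same sign in ITD cells. With the batch block 1151 genes were called in WT cells (6.36%), 475 higher (2.63%) and 676 lower (3.74%), of which 1124 had the same sign and 486 (42.2%) were called in ITD cells. The share of same sign under the block was lowest without Esamlo WT batch C, at 89.2% of 545 genes.

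The sizes of the 2 gaps were described over 3 choices of genes. Over the 119 genes called in WT cells, the median size in the direction of the call was 1.70 in WT and 1.25 in ITD cells. Over the 80 genes called in ITD cells it was 1.78 in ITD and 1.55 in WT cells. Each choice therefore had the larger median in the genotype that chose it. Over 600 genes called for the mean of both gaps (3.32% of those tested), a choice that favours neither genotype, the medians were 1.09 in ITD and 1.19 in WT cells. Of these 600 genes 355 (59.2%) had the smaller gap in ITD cells, against 52.8% of all genes tested. For 567 of the 600 the ITD gap was at least 0.5 times the WT gap, and for 584 the WT gap was at least 0.5 times the ITD gap. The shared sign of all 600 is partly fixed by the choice, and so are these counts of relative size. Over all 18093 genes tested the same counts were 9323 and 9771. The Pearson correlation of the 2 gaps was 0.899 over the 600 genes and 0.305 over all genes tested.

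**Figure D3:**
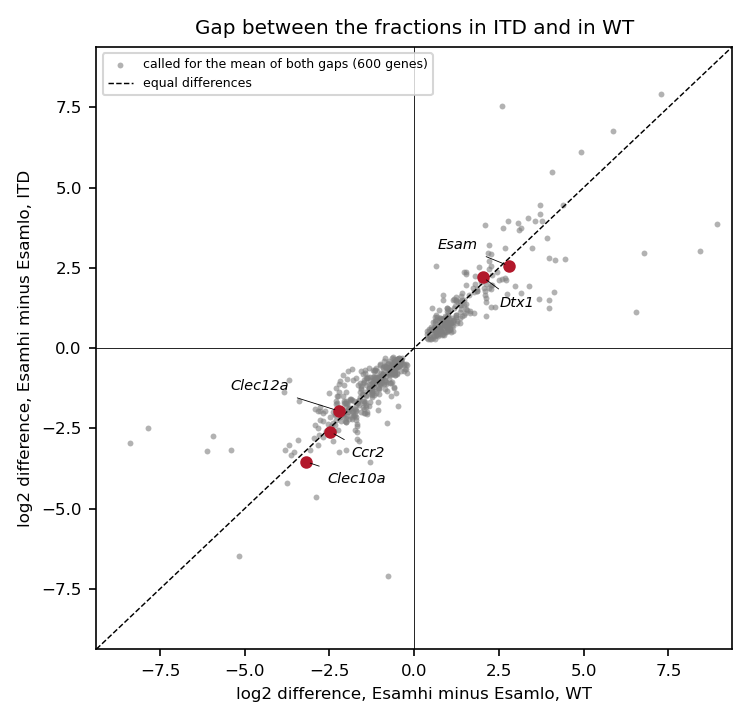
Log2 difference of Esamhi minus Esamlo in WT (x axis) and ITD cells (y axis) for the 600 genes called for the mean of both gaps, with 5 named genes in red and the line of equal differences dashed. The points lie along the line, which the choice by the mean gap partly sets. Of the 24 genes more than 1.5 log2 units off the equality of both gaps, 23 had a mean under 1 CPM in 1 group.

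The root mean square log2 CPM difference between the fractions over all genes tested was 0.796 in batch C and 0.900 in batch D in ITD cells, a mean of 0.848 ± 0.074 (SD, n = 2). In WT cells it was 0.880 and 0.898, a mean of 0.889 ± 0.013 (SD, n = 2). The ITD value of batch D was above both WT values and that of batch C was below both. Batches C and D of 1 group were 0.720 to 0.880 apart on the same measure, so the distance over all genes was close to that between batches. No test was run on these 2 values a genotype.

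The test of the difference between the gaps called 0 of 18093 genes in edgeR's fit, with 267 genes at an unadjusted p under 0.05 (1.48%). It also called 0 with the batch block, with 749 genes at an unadjusted p under 0.05 (4.14%). DESeq2 and limma-voom called 0 as well, with 307 and 220 genes at an unadjusted p under 0.05. This test is the same number as the ITD effect in Esamhi minus that in Esamlo cells. For the markers the difference of the gaps, ITD minus WT, was -0.23 for Esam (95% interval -2.11 to 1.65), 0.17 for Dtx1 (-1.04 to 1.38), 0.26 for Clec12a (-0.29 to 0.81) and -0.13 for Ccr2 (-1.47 to 1.20). The interval for Clec12a leaves out a change of its gap by a factor of 2 either way, and the intervals of the other 3 include one. Over the 600 genes of the mean gap the interval lay within 1 log2 unit of 0 for 230 genes, and with the block, where 2542 genes were called (14%), for 1616.

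The genes of smallest p for that difference are given as values, since all had an adjusted p of 1. Dzip3, a ubiquitin ligase that binds RNA, had 20.1 and 19.0 CPM in Esamhi ITD cells and 11.9 and 8.86 CPM in Esamlo ITD cells. In WT cells it had 10.8 and 7.73 CPM in Esamhi and 9.40 and 11.3 CPM in Esamlo cells, so the 2 Esamhi ITD libraries stood above the other 6. Its gap difference was 1.07 (95% interval 0.42 to 1.71, unadjusted p = 0.00268). Sema4c, a membrane semaphorin, had 1.70 and 2.12 CPM in Esamhi ITD cells and 5.63 and 13.3 CPM in Esamlo ITD cells, against 2.60 and 2.41 CPM and 4.82 and 4.0 CPM in WT cells. Its gap difference was -1.53 (95% interval -2.64 to -0.43). Ldlrad3, a membrane protein of the LDL receptor family, went the other way: it had 9.33 and 6.17 CPM against 11.5 and 15.7 CPM in ITD cells, and 9.14 and 6.0 CPM against 32.6 and 31.8 CPM in WT cells. The Esamlo WT libraries thus stood alone for Ldlrad3. Heg1, a membrane protein of endothelial junctions, had 17.1 and 14.5 CPM in Esamhi ITD and 10.5 and 11.3 CPM in Esamhi WT cells, with 25.8 and 37.9 CPM in Esamlo ITD and 44.4 and 54.3 CPM in Esamlo WT cells. Slc39a11, a zinc transporter, and Atg4d, a protease of autophagy, had gap differences of -0.84 and -0.93.

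**Figure D4:**
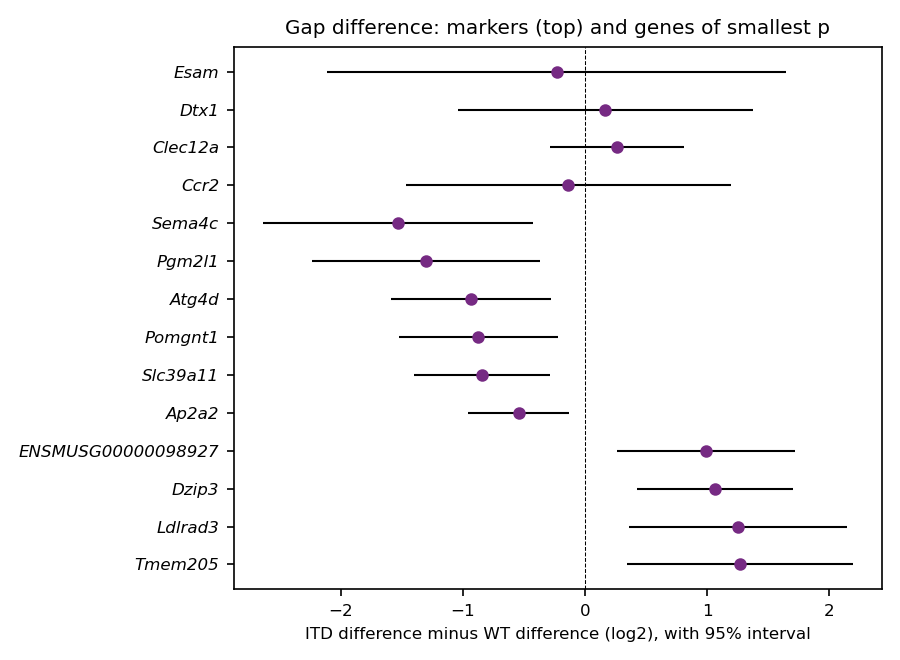
Difference of the gaps (log2 difference in ITD minus that in WT) with its 95% interval for the 4 markers and for the 10 genes of smallest p with at least 5 CPM in 1 group. The intervals of the markers include 0, and those of the other genes, chosen for their p, do not, while no adjusted p was under 1.

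Among the 119 WT calls, the 5 with the least sign of a gap in ITD cells were Ceacam1, Rnase4, Mcee, Gm12470 and 6330403L08Rik. Ceacam1, an adhesion molecule and inhibitory receptor, had 17.8 and 24.3 CPM in Esamhi ITD, 28.2 and 39.9 CPM in Esamlo ITD, 19.0 and 23.6 CPM in Esamhi WT and 62.1 and 101 CPM in Esamlo WT cells. Its groups kept their order in ITD cells, and the difference there was -0.72 ± 0.38 (adjusted p = 0.718). Of its 50-base words 30.4% also occur in Ceacam2. Rnase4, a secreted ribonuclease, had 1.47 and 1.39 CPM in Esamhi ITD and 2.59 and 3.03 CPM in Esamlo ITD cells, with a gap difference of 2.69 (unadjusted p = 0.00414). The antisense gene 6330403L08Rik was below 1 CPM in all 8 libraries.

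Notch genes came first among the gene groups. Of 34 genes of the pathway tested, 1 was called between the ITD fractions without a block, Dtx1, against 0.442% of all genes. Dtx1 was a marker chosen beforehand. With the batch block 1 was higher, Dtx1 (against 1.41% of all genes), and 1 was lower, Notch1 (against 2.44%). The median difference of the group was -0.15, beside 0.00378 over all genes tested. Notch2, the receptor on which the Esamhi fraction depends, had 253 and 256 CPM in Esamhi ITD cells and 272 and 331 CPM in Esamlo ITD cells (-0.27 ± 0.45, adjusted p = 0.983). Notch1 had 4.69 and 5.51 CPM against 15.8 and 16.9 CPM, and its adjusted p was 0.431 without and 0.00987 with the block. Hes1, a Notch target in many cell types, had 104 and 47.6 CPM against 68.4 and 29.8 CPM. Its level followed the batch more than the fraction. Jag1, a Notch ligand, had 41.0 and 32.3 CPM against 14.1 and 18.1 CPM and was called in neither fit (adjusted p = 0.0587 with the block). The window chr5:120711620-120711919 (minus strand, GRCm38.p6), the RefSeq promoter of Dtx1, had 0 matches of the RBPJ core letters TGGGAA on either strand, and 25.6% of 32851 promoters of that length held one.

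A list of genes tied to CD11b+ dendritic cells and the Notch2-dependent fraction was set beside them. Of 14 tested, 3 were higher in Esamhi ITD cells with the block (Esam, Dtx1 and Relb), against 1.41% of all genes. Esam was part of the sort and Dtx1 was a marker chosen beforehand, so only the call of Relb adds to the markers. The block called 2 lower (Cd24a and Cx3cr1), against 2.44%. In WT cells it called 5 higher (against 2.63% of all genes) and 2 lower (against 3.74%). Cx3cr1 is also in the list of monocyte and macrophage genes. Relb, an NF-kB subunit needed for CD11b+ dendritic cells, had 410 and 493 CPM in Esamhi ITD cells and 248 and 280 CPM in Esamlo ITD cells (0.75, adjusted p = 0.000628 with the block). Clec4a4, the lectin DCIR2 that marks the fraction, had 140 and 109 CPM against 61.0 and 50.7 CPM and was not called (adjusted p = 0.0906 with the block). Cd4 had 477 and 358 CPM against 233 and 194 CPM, and Tbx21, the transcription factor T-bet, had 46.7 and 60.9 CPM against 17.0 and 32.1 CPM. Neither was called in ITD cells in either fit, although no Esamlo ITD library reached an Esamhi ITD library. Tbx21 was called in WT cells with the block, and the gap difference of Tbx21 had an unadjusted p of 0.80. Cd24a, a surface glycoprotein, had 19.6 and 34.1 CPM against 89.0 and 92.8 CPM (-1.78 ± 0.38, adjusted p = 0.0466).

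Of 25 C-type lectins tested, 8 were lower (against 0.359% of all genes) and 0 higher in Esamhi ITD cells without a block, and 10 were lower (against 2.44%) and 0 higher with it. The same 10 were called lower in WT cells with the block (against 3.74% of all genes). The median difference was -1.42 in ITD and -1.17 in WT cells. The 8 were Clec10a, Mgl2, Clec9a, the marker Clec12a and the DC-SIGN relatives Cd209a, Cd209c, Cd209d and Cd209e, and the block added Clec4a3 and Clec4b1. Cd209a was the most abundant of them, with 316 and 205 CPM in Esamhi ITD cells and 930 and 728 CPM in Esamlo ITD cells (-1.69 ± 0.29, adjusted p = 0.0127). Cd209c had 2.66 and 2.66 CPM against 16.2 and 18.2 CPM, and Cd209d had 10.1 and 4.60 CPM against 36.3 and 28.5 CPM. Clec9a, a receptor for actin of dead cells that marks cDC1 (the CD8+ lineage of conventional dendritic cells), had 9.21 and 15.7 CPM against 50.7 and 47.8 CPM. For each of these 4 lectins both Esamhi ITD libraries were below both Esamlo ITD libraries.

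Of 29 genes of monocytes and macrophages tested, 3 were lower (against 0.359% of all genes) and 0 higher without a block, among them Ccr2 and Clec12a. Both of these were markers chosen beforehand. With the block 8 were lower (against 2.44%) and 0 higher, the same 8 as in WT cells (against 3.74%). In ITD cells 18 were lower and 2 higher with no overlap of the groups, against 21.7% and 23.8% of all genes. Clec12a is also among the lectins and Cx3cr1 in the list of the Notch2-dependent fraction, so their calls stand in more than 1 count. Lyz2, the lysozyme of myeloid cells, had 319 and 355 CPM against 1609 and 1154 CPM and was called with the block (-2.04, adjusted p = 0.00614). Lyz1, its close copy, Fcgr3, a low-affinity Fc receptor, and Emilin2, a matrix glycoprotein, were also called with the block. Cx3cr1, the fractalkine receptor, had 23.8 and 22 CPM against 112 and 101 CPM. Itgam, which encodes CD11b itself, had 189 and 134 CPM against 170 and 181 CPM, and its groups overlapped. The median of the 29 was -0.73 in ITD and -1.36 in WT cells.

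The summed CPM of the 30 monocyte and macrophage genes was 2760 and 2530 in Esamhi ITD cells and 5350 and 4730 in Esamlo ITD cells. In the Esamlo WT libraries it was 7280 and 5800. In bulk libraries more cells of a type and more RNA per cell cannot be told apart.

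Of 16 markers of cDC1 tested, 3 (Clec9a, Cadm1 and Cd8a) were lower in Esamhi ITD cells without a block, against 0.359% of all genes. With the block 6 were lower, against 2.44%, the further ones being Irf8, Naaa and Cd36, and 0 were higher in either fit. The groups did not overlap for 14 of the 16, of which 13 were lower (against 21.7% of all genes) and 1 higher (against 23.8%) in Esamhi ITD cells. The block called 6 lower in WT cells too (against 3.74% of all genes). Irf8, the transcription factor that cDC1 need, had 118 and 201 CPM in Esamhi ITD cells and 525 and 550 CPM in Esamlo ITD cells. Cadm1, an adhesion molecule, had 30.0 and 35.6 CPM against 81.5 and 72.7 CPM. Xcr1, the chemokine receptor that defines cDC1, had 28.1 and 39.2 CPM against 90.6 and 82.1 CPM and was not called (adjusted p = 0.235 with the block). In the canonical CD8+ ITD libraries of the same series Xcr1 had a mean of 903 CPM, Cadm1 607 CPM and Cd8a 496 CPM. The summed level of the 16 genes was 1530 and 1820 CPM in Esamhi ITD and 3090 and 3270 CPM in Esamlo ITD cells. Whether cDC1 among the sorted Esamlo cells had a part in these differences was not tested.

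Markers of other cells were read in the same libraries. The 13 T cell markers summed to 111 and 144 CPM in Esamhi ITD and 46.6 and 45.5 CPM in Esamlo ITD cells. In Esamhi cells most of that was Tcf7, a transcription factor of T cells that some dendritic cells also express, with 58.9 and 107 CPM against 6.97 and 17.8 CPM. Tcf7 and Cd5 were called higher with the block, 2 of 13 against 1.41% of all genes, and 0 were called without it. Cd5 had 28.6 and 33.8 CPM against 15.7 and 17.0 CPM (0.91, adjusted p = 0.0309 with the block). Cd3e, which defines T cells, had 3.67 and 0.182 CPM against 1.52 and 1.09 CPM. The 12 NK cell markers summed to 147 and 164 CPM in Esamhi ITD and 271 and 326 CPM in Esamlo ITD cells. Without a block 1 of the 12 was called lower in Esamhi (against 0.359% of all genes), Klrk1, the receptor NKG2D (-1.89 ± 0.30, adjusted p = 0.00581). With the block 2 were lower (against 2.44%) and 0 higher, Klrk1 and Klrb1c, as in WT cells. The groups did not overlap for 9 of the 12, all lower in Esamhi ITD cells (against 21.7% of all genes). The 12 B cell markers summed to 334 and 266 CPM in Esamhi and 210 and 216 CPM in Esamlo ITD cells, while their median difference was -0.46. With the block 1 of the 12 was called lower in Esamhi, against 2.44% of all genes. It was Fcrla (adjusted p = 0.0452), which was not called with a block fitted within each genotype (adjusted p = 0.0694). Erythroid and platelet genes followed the batch, with sums of 116 and 81.0 CPM in the batch C ITD libraries and 8.66 and 12.9 CPM in those of batch D. Of the red pulp macrophage markers Cd163, a scavenger receptor, had 11.2 and 2.72 CPM in Esamhi ITD cells and 31.0 and 15.8 CPM in Esamlo ITD cells. It was the 1 of 14 called lower with the block (-1.92, adjusted p = 0.0403), against 2.44% of all genes. With a block fitted within each genotype Cd163 was not called (adjusted p = 0.0745). Of 15 pDC markers 2 were lower in Esamhi ITD cells with the block (against 2.44% of all genes) and 0 higher. Cd300c, among them, was also called without the block (adjusted p = 0.0179). Its means were 3.4 CPM in Esamhi ITD, 13.5 CPM in Esamlo ITD and 326 CPM in pDC ITD libraries. The block called 1 of 8 plasma cell markers lower, 1 of 11 neutrophil markers higher (against 1.41%) and 0 of 12 stromal markers. Of 17 chemokine receptors it called 2 lower (Ccr2 and Cx3cr1) and 1 higher (Ccr7). Of 20 early response genes it called 1 lower (Nfkbia). The part of these cells in the fraction differences was not tested.

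Genes of dendritic cell maturation were called on the Esamhi side with the block. Of 26 tested, 8 were higher (against 1.41% of all genes) and 0 lower in Esamhi ITD cells with the block, and 0 were called without it. Ccr7, the receptor that leads mature dendritic cells to T cell zones, had 1014 and 2577 CPM in Esamhi ITD cells and 645 and 1332 CPM in Esamlo ITD cells. It was higher in Esamhi within each batch, and its level in Esamlo batch D was above that in Esamhi batch C. Its difference of 0.78 passed with the block (adjusted p = 0.0124), against an adjusted p of 0.956 without it. With the block the call of Ccr7 was lost without each of the 4 ITD libraries in turn. So were the block calls of Cd5, Socs2, Etv3, Zeb1, Id3, Jak2, Csf2ra and Cd163. Those of Clec4a3, Emilin2, Ptgir, Tbxas1, S1pr4, Ctss and H2-DMa were lost in the same way. The same held for the block calls of Crispld2, Il1rl2, Stau2, Nfkbia, Cpe and Rgs16. Fscn1, the actin bundler fascin of mature dendritic cells, had 297 and 512 CPM against 151 and 223 CPM. Socs2, a feedback inhibitor of cytokine signalling, had 30.8 and 64.7 CPM against 13.7 and 24.8 CPM. Il4i1, an amino acid oxidase, Icosl, a ligand for T cells, Cd200, a ligand of an inhibitory receptor, and Traf1, a signalling adaptor, were the others beside Relb. Of the 50-base words of Il4i1 77.1% also occur in Tbc1d17, and 86.3% of its exon bases overlap exons of other genes, mainly Tbc1d17. Whether its call came from reads of Tbc1d17 was not tested. With a block fitted within each genotype Socs2 (adjusted p = 0.0686) and Cd200 (adjusted p = 0.0923) were not called. The median of the 26 was 0.61 in ITD and 0.36 in WT cells. In WT cells 7 were called higher with the block (against 2.63% of all genes), 6 of them shared with ITD.

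**Figure D5:**
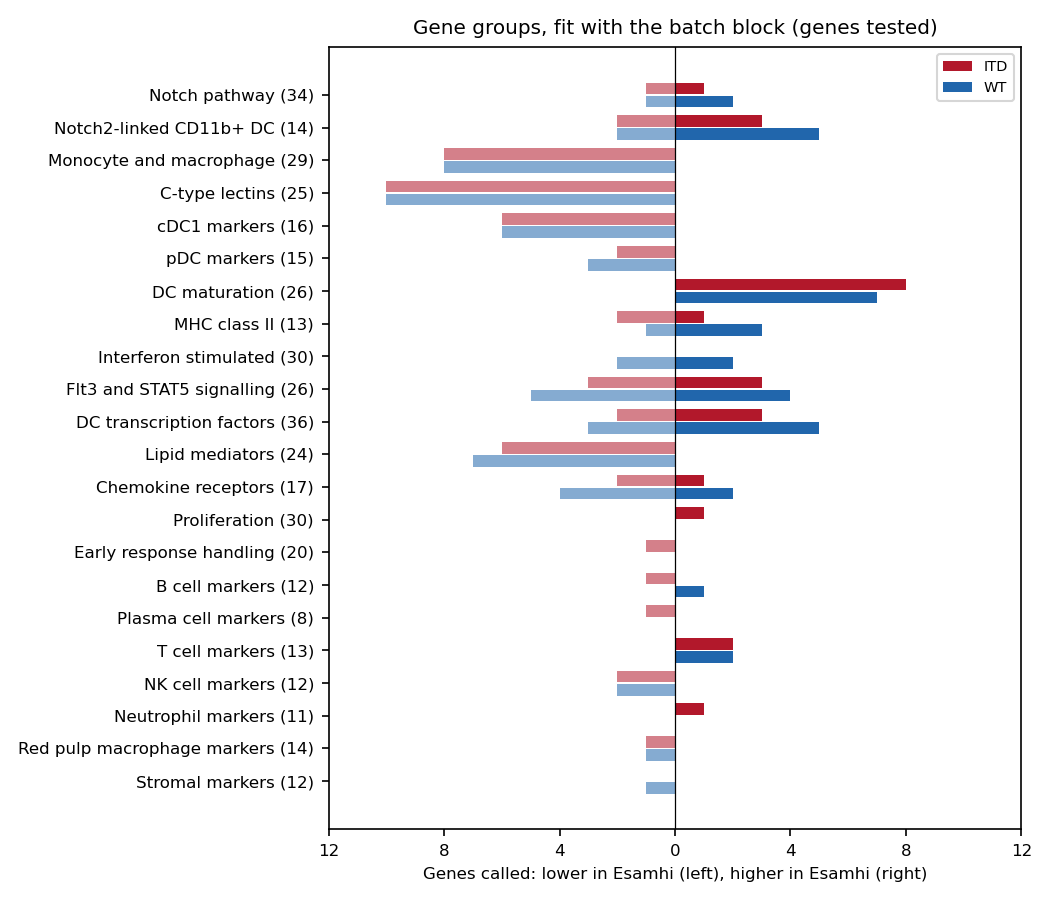
Number of genes of each group called lower (left) or higher (right) in Esamhi than in Esamlo cells in the fit with the batch block, in ITD (red) and WT cells (blue), with the number of genes tested in brackets. Lectins, monocyte genes, cDC1 markers and lipid mediator genes were called only on the left in both genotypes and maturation genes only on the right.

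Of 36 transcription factors of dendritic cells tested, 3 were higher (Relb, Etv3 and Zeb1, against 1.41% of all genes) and 2 lower (Irf8 and Id3, against 2.44%) in Esamhi ITD cells with the block, and 0 were called without it. Etv3, a repressor of the ETS family, had 690 and 1048 CPM against 450 and 674 CPM, higher in Esamhi within each batch. Id3, an inhibitor of E proteins, had 4.97 and 2.36 CPM against 22.5 and 13 CPM. Irf4, the factor best known in CD11b+ dendritic cells, had 188 and 202 CPM against 107 and 115 CPM and was not called (adjusted p = 0.277 with the block).

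Genes of Flt3 and STAT5 signalling, receptors among them, moved both ways. Of 26 tested, Ccnd1, Socs2 and Jak2 were higher in Esamhi ITD cells with the block, 3 against 1.41% of all genes. Csf2ra, Socs3 and Ccnd3 were lower, 3 against 2.44%, and 0 were called without the block. All 6 were called in the same direction in WT cells with the block. With a block fitted within each genotype Jak2 (adjusted p = 0.0769) was not called in ITD cells, nor was Socs2. Ccnd1, a cyclin of the G1 phase, had 422 and 434 CPM in Esamhi ITD cells and 170 and 184 CPM in Esamlo ITD cells (1.25 ± 0.27, adjusted p = 0.0504 without the block). Socs3, a feedback inhibitor, had 37.5 and 39.8 CPM against 85.3 and 119 CPM. Csf2ra, a chain of the GM-CSF receptor, had 287 CPM in both Esamhi ITD libraries and 394 CPM in both Esamlo ITD libraries. Flt3 itself was not called (-0.13 ± 0.16, adjusted p = 0.957).

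Of 24 genes of lipid mediators tested, 6 were lower (against 2.44% of all genes) and 0 higher in Esamhi ITD cells with the block, and all 6 were also lower in WT cells. The median of the 24 was -0.20. With no overlap of the groups 5 were higher and 8 lower, against 23.8% and 21.7% of all genes. Their summed level was 3580 and 3220 CPM in Esamhi ITD cells and 2970 and 2860 CPM in Esamlo ITD cells, so the sum lay on the side opposite to the calls. Cysltr1, a leukotriene receptor, had 5.82 and 4.60 CPM in Esamhi ITD cells and 18.1 and 23.6 CPM in Esamlo ITD cells (-2.06, adjusted p = 0.000833). Ltb4r1, another leukotriene receptor, had 11.8 and 5.93 CPM against 50.5 and 43.0 CPM. Alox5, the enzyme that starts leukotriene synthesis, had 2.49 and 2.36 CPM against 7.50 and 13.9 CPM. The rest were Ptgir, the prostacyclin receptor, Tbxas1, thromboxane synthase, and S1pr4, a receptor for sphingosine phosphate. Without the block 0 of the 24 were called, and with a block fitted within each genotype S1pr4 was not (adjusted p = 0.0509).

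Of 13 MHC class II genes tested, 1 was higher with the block, H2-Eb2, against 1.41% of all genes, and 2 were lower, H2-DMa and Ctss, against 2.44%. The median was -0.19 in ITD cells, where 3 genes were higher and 7 lower with no overlap of the groups, against 23.8% and 21.7% of all genes. H2-Eb2, a class II chain of low level, had 97.1 and 127 CPM in Esamhi ITD cells and 29.4 and 42.3 CPM in Esamlo ITD cells (1.64, adjusted p = 0.00153). Ctss, the protease cathepsin S that trims the invariant chain, fell by 0.38 and H2-DMa, a chain of the peptide exchanger, by 0.42. The call of Ctss was lost with a block fitted within each genotype (adjusted p = 0.0528).

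Proliferation genes were higher in Esamhi ITD cells on levels but were hardly called. Of 30 tested, 24 had both Esamhi ITD libraries above both Esamlo ITD libraries, against 23.8% of all genes tested, and 0 had the reverse, against 21.7%. The block called 1 of them higher, against 1.41% of all genes, and 0 lower. It was Bub1, a kinase of the spindle checkpoint, with 12.4 and 22.9 CPM against 6.79 and 4.91 CPM (1.62, adjusted p = 0.0385, and 0.0853 with a block fitted within each genotype). Mki67, the standard marker of cycling cells, had 59.6 and 96.9 CPM against 50.6 and 50.8 CPM and was not called (adjusted p = 0.446 with the block). The median difference was 0.78 in ITD and 0.48 in WT cells. The 30 genes are expressed together in cycling cells, so they are not independent. Of 30 interferon-stimulated genes 0 were called in ITD cells in either fit. In WT cells the block called 2 higher (against 2.63% of all genes) and 2 lower (against 3.74%).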

How the data were processed

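RNA of sorted splenic dendritic cells was sequenced in 24 libraries of 10 groups, and 8 libraries of CD11b+ cells are described here. Per the labels' protocols, PicoPure columns were used for RNA, preceded by Trizol in some samples, and the SMART-seq v4 Ultra Low Input chemistry for cDNA. Tools per the submitters' processing notes were bcl2fastq 1.8.4, Bowtie2 (0.4 as listed, which no release is numbered) and DESeq2 1.8.2, on mm10. Strandedness is, like counter and annotation, not given in the sources used here, so reads of overlapping or antisense genes cannot be told apart. The authors deposited raw counts per Ensembl gene, the values analysed, and a normalized table that was not used here. Of 39017 genes, 37607 had a symbol in the reference tables, and the 1410 others held 0.598% of counts.

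TMM scaled the counts, and filterByExpr with a minimum count of 10 kept 18093 genes. edgeR's quasi-likelihood model (edgeR 4.0.16, limma 3.58.1, DESeq2 1.42.0, R 4.3.3) with 10 group means and no block used all 24 libraries, and p-values were adjusted by Benjamini-Hochberg over all genes at 0.05. The common biological coefficient of variation was 0.317, and 0.174 with the experiment batch as a block. Log2 CPM within a batch used a prior count of 2. Python 3.11.15 with matplotlib 3.10.9 drew the plots. The scripts were tested on simulated data.

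The replicate numbers pair the samples, since the labels give replicate 1 of each CD11b+ group to batch C and replicate 2 to batch D. Deviations from the group means correlated across genes between all pairs of groups, with r from 0.121 to 0.319. Per the series text the replicates came from independent experiments.

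The genes named were the 4 markers, the 10 largest differences each way with at least 5 CPM and the same sign in both batches (without and with the block), the genes of smallest p for the gap difference, the WT calls of smallest and largest p in ITD, and up to 6 called members of each gene list. Notch2, Hes1, Jag1, Cd4, Clec4a4, Tbx21, Irf4, Cd209a, Cd209e, Clec4a3, Clec4b1, Emilin2, Xcr1, Flt3, Mki67, Itgam, Cd3e, Icosl, Traf1 and Wdr78 were added after their values were seen. The comparison, its markers and the gene lists were chosen with earlier results of these data known. Lists are described by counts and medians, with no set test. Positions and shared 50-base words came from an annotation of the mm10 build. Alternatives were other scalings, filters, tools and sets of libraries, the batch block and the omission of each library. A called gene of the monocyte and macrophage list is not reported here by name.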

Additional observations from a re-analysis of the deposited data

How the results depend on the processing

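The counts of called genes depended on the fit. The sign of the 80 ITD calls was kept by all 80 in every fit run except the filter minimum of 50 and the fit of the 4 ITD libraries. In these it was kept by 79 each. They tested 14143 and 15548 genes, and a call that was not tested counts as not kept. For the ITD gap the replicate block by experiment batch called 696 genes, the replicate block by genotype 564, DESeq2 272, the 8 CD11b+ libraries 135 (584 with the replicate block) and the 4 ITD libraries 420. Without 1 library at a time 5 to 31 genes were called, and up to 248 with the block. For the WT gap the same settings, without the last, gave 1151, 1012, 437, 302 (993) and limma-voom gave 190, with 4 to 126 genes without 1 library and up to 966 with the block. For the mean gap they gave 2542, 2255, 1066 and 1181 (2225), with 281 to 652 genes without 1 library and up to 2635 with the block. The share of WT calls with the same sign in ITD cells, an alternative chosen after seeing the data, ran from 89.2% to 100% over the omissions. The distance between fractions was 1.60 in ITD and 1.68 in WT cells over the 600 genes of the mean gap, and 0.687 and 0.730 with a prior count of 5.

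Omission of 1 library turned the sign of some values, none of them called without a block; Ccr7 was called with the batch block, but in 0 of 4 omissions with it. Over the omissions the ITD gap ran from -3.66 to 3.21 for 6330403L08Rik, -0.00179 to 1.47 for Ccr7, -0.0418 to 1.31 for Hes1 and -0.465 to 0.149 for Itgam. The gap difference ran from -0.597 to 0.212 for Ccr2, -0.123 to 0.567 for Clec12a, -0.716 to 0.71 for Dtx1 and -1.46 to 0.423 for Esam. The cause was not tested. Where an omission left 1 library in a group, it was assumed to vary like the other groups. With 2 libraries a group the precision rests on pooling the spread over groups. Without the block p-values measure the spread between independent experiments. With the block they measure the spread left after the shift shared by a batch is taken out.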

Other observations

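Other genes named by the rules show the same separation of the ITD fractions. Higher in Esamhi ITD cells with the batch block were Insm1, a zinc finger factor of neuroendocrine cells, with 10.5 and 20.2 CPM against 2.41 and 1.09 CPM in Esamlo ITD cells (adjusted p = 0.0138), and Gfpt2, an enzyme of hexosamine synthesis, with 4.75 and 7.63 CPM against 0.447 and 1.15 CPM (adjusted p = 0.00934). Cpe, a carboxypeptidase that processes peptide hormones, had 3.45 and 6.90 CPM against 0.357 and 0.121 CPM (adjusted p = 0.0498), and Rgs16, which dampens G protein signalling, had 6.44 and 7.38 CPM against 0.447 and 0.971 CPM (adjusted p = 0.0355). None of these 4 was called without the block, and with a block fitted within each genotype Cpe (adjusted p = 0.0783) and Rgs16 (adjusted p = 0.0839) were not called.

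Lower in Esamhi ITD cells in both fits were Fgfr1, a receptor for fibroblast growth factors, with 22.8 and 22.4 CPM against 66.7 and 73.0 CPM, Dapk1, a kinase tied to cell death, with 31.1 and 25.7 CPM against 88.2 and 94.6 CPM, and Fxyd5, a regulator of the sodium pump, with 118 and 142 CPM against 262 and 269 CPM. Their differences without the block were -1.65 ± 0.23, -1.71 ± 0.24 and -1.05 ± 0.15. Dapk1 was also higher in ITD than in WT cells on levels in both fractions, with 14.6 and 11.8 CPM in Esamhi WT and 48.2 and 37.5 CPM in Esamlo WT cells, and its gap difference was -0.01 (unadjusted p = 0.984). Plxdc2 had the same order of levels, with 1.5 and 1.24 CPM in Esamhi WT and 6.23 and 2.84 CPM in Esamlo WT cells. For the metalloprotease Mmp9 the order was the reverse, with 35.6 and 30.6 CPM in Esamhi ITD and 4.64 and 6.00 CPM in Esamlo ITD cells against 123 and 107 CPM and 23.0 and 42.0 CPM in WT cells. The genotype difference of these levels was not tested here.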
